A study of Mus musculus with 12 samples.

Results

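Hemoglobin is built from α-globin and β-globin chains that each hold a heme, and heme synthesis starts with 5-aminolevulinate (ALA) synthase. The 6 genes described here are the adult α-globin genes Hba-a1 and Hba-a2, the adult β-globin genes Hbb-bs and Hbb-bt, and the ALA synthase genes Alas2 and Alas1, chosen by gene symbol from the 54532 gene IDs of a liver expression table. All 6 were found and all 6 passed the filter on low values, which kept 10806 genes. The series holds 12 liver RNA libraries of wild-type C57BL/6J mice, 3 in each of 4 groups. They are a high-fat diet with 2% dextran sulfate sodium (HFD_DSS), a diet that the labels abbreviate as CD with 2% dextran sulfate sodium (CD_DSS), the high-fat diet alone (HFD) and the CD diet alone (CD). Dextran sulfate sodium (DSS) is a polymer given to rodents to injure the lining of the colon. The labels do not spell out CD and do not say whether the 3 samples of a group are separate mice. The p-values therefore rest on the spread among the libraries, and that spread may be technical.

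Alas2 was the only one of the 6 genes whose level differed past the threshold in any comparison. It averaged 29.4 ± 4.35 FPKM in the 6 DSS libraries and 52.2 ± 5.99 FPKM in the 6 untreated libraries (SD), and it fell with DSS on both diets. With DSS averaged over both diets, 1 of the 6 genes was called, against 20% of the genes tested. FPKM divides the fragments of a gene by its exon length and by the depth of the library. A comparison of different genes in FPKM therefore depends on the exon lengths used. The 4 globin genes varied together from library to library, and each had its lowest level in HFD_DSS 2. In all 4 the HFD_DSS libraries lay below the CD_DSS libraries, as 8.97% of the genes tested did, and none of these differences passed the adjusted test. Alas1 varied up to several-fold within a group, and no comparison of it passed. In tissue RNA, fewer cells of a type and less RNA per cell cannot be told apart, and this holds for each result below.

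As background, ALA synthase joins glycine and succinyl-CoA in mitochondria, the first and usually rate-limiting step of heme synthesis. Alas1 is the form that most tissues use; in liver it serves the cytochromes P450 and is repressed by heme. Alas2 lies on the X chromosome and is known as the erythroid form, which supplies the heme of hemoglobin. Globin genes are transcribed in red cell precursors, and young red cells still carry globin mRNA in the blood that fills a liver at collection.

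The upstream sequences of the globin genes are shown because they tell how far the copies differ, and those of the ALA synthase genes because they set the erythroid form beside the common form. All were taken from RefSeq on GRCm38.p6 and read 5′ to 3′ on the strand of the gene. Capitals mark the letters searched on both strands. In the globin genes they mark ATATAA, the letters of the box known for placing the transcription start, CCAAT with its reverse complement ATTGG, and CACCC. In Alas2 they mark TTATCT, the reverse complement of AGATAA, which GATA factors are known to bind. In Alas1 they mark GCATGC, the core of the motif of the factor NRF1. Hba-a2 is shown at chr11:32296369-32296488 on the plus strand and Hbb-bs at chr7:103827929-103828011 on the minus strand. Alas2 is shown at chrX:150547195-150547374 on the plus strand. The stretches of 30 bases are Hba-a1 at chr11:32283632-32283661, Hbb-bt at chr7:103813935-103813964 and chr7:103813981-103814010, Hbb-bs at chr7:103827987-103828016 and Alas1 at chr9:106247904-106247933, the last 4 on the minus strand.
Hba-a2 upstream: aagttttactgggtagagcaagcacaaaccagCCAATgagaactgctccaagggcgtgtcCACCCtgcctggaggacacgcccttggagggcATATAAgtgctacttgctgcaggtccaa
Hba-a1 at the TATA box: cccttggagggcATATAAgtgctacttgct
Hbb-bs upstream: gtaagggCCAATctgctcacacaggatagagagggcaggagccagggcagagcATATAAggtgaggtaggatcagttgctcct
Hbb-bt at the TATA box: ccagcATTGGgtATATAAagctgagcaggg
Hbb-bs at the CCAAT box: ccctggtaagggCCAATctgctcacacagg
Hbb-bt at the CCAAT box: ccctggcATTGGCCAATctgctcagagagg
Alas2 upstream: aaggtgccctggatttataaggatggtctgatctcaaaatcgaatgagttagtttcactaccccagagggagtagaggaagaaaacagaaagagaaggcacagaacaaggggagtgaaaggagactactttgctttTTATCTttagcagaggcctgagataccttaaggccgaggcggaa
Alas1 at the NRF1 core: cacccaaggcGCATGCgcggcggtcactcc

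The α-globin copies had the same letters at 247 of 247 aligned bases before the start, so the Hba-a2 stretch also stands for Hba-a1 except for its position. The β-globin copies shared 127 of 249 aligned bases (51.0%, without gaps). In the 250 bases before the RefSeq starts, all 4 globin genes held a TATA box and a CCAAT box. Among 32851 RefSeq promoters searched the same way, 9.10% held ATATAA, 33.9% CCAAT and 52.0% CACCC. The GATA factor motif, searched as AGATAA, as TGATAA, as AGATAG and as TGATAG, was in 26.5% of all promoters. It was in those of Hba-a1, Hba-a2, Hbb-bs and Alas2, and none of these letters was in the windows of Hbb-bt and Alas1. The NRF1 core was in 6.70% of all promoters and stood 193 to 188 bases before the second RefSeq start of Alas1. CACCC was in the windows of all 6 genes. These matches are letters in a window and say nothing of binding in these livers.

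The positions of the genes are those of the mm10 GENCODE annotation. Upstream was counted from the RefSeq starts, and some of these lie inside the GENCODE genes. The stretches shown for Hba-a1, Hbb-bs and Alas1, and all or part of those for Hbb-bt, therefore lie inside the genes as placed here. Hba-a1 (ENSMUSG00000069919) lies at chr11:32283511-32284465 and Hba-a2 (ENSMUSG00000069917) at chr11:32296489-32297298, both on the plus strand. Hbb-bs (ENSMUSG00000052305) lies at chr7:103826534-103828096 and Hbb-bt (ENSMUSG00000073940) at chr7:103812524-103813996, both on the minus strand. Alas2 (ENSMUSG00000025270) lies at chrX:150547375-150570638 on the plus strand, and Alas1 (ENSMUSG00000032786) at chr9:106233455-106248654 on the minus strand. The coding sequences of Hba-a1 and Hba-a2 differed at 1 of 426 bases, and those of Hbb-bs and Hbb-bt at 1 of 441. Of all 50-base stretches of the Hba-a2 transcript, 86.9% were also in Hba-a1, and 58.3% of those of Hbb-bt were in Hbb-bs. No label or file header states how fragments that match both copies were assigned. The split between the copies of a pair is therefore uncertain, and their 2 values may not be independent. Alas2 shares 311 of its 2403 exon bases (12.9%) with Apex2 on the other strand, and Apex2, a DNA repair nuclease, had 0.619 to 1.37 FPKM. Alas1 shares 465 of its 6174 exon bases (7.53%) with 4930500F10Rik on the other strand, which was listed at 0 in all 12 libraries.

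By mean level over the 12 libraries, Hbb-bs (149 FPKM) ranked 309 among all genes and Hba-a1 (135 FPKM) ranked 337. Alas1 (53.6 FPKM) ranked 813 and Alas2 (40.8 FPKM) ranked 1032, so in FPKM the erythroid form stood near the common form. That nearness depends on the annotated exon lengths, 6174 bases for Alas1 and 2403 for Alas2. Hbb-bt (18.2 FPKM) and Hba-a2 (8.16 FPKM) had the lower values of their pairs, and the split within a pair is uncertain for the reason given above. The libraries held 23.4 to 29.4 M fragments. Recovered as whole fragments, the smallest count of any of the 6 genes in a library was 54 for Hba-a2. Alas2 had 1327 to 3554 fragments per library and Alas1 had 2851 to 20912.

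**Figure D1:**
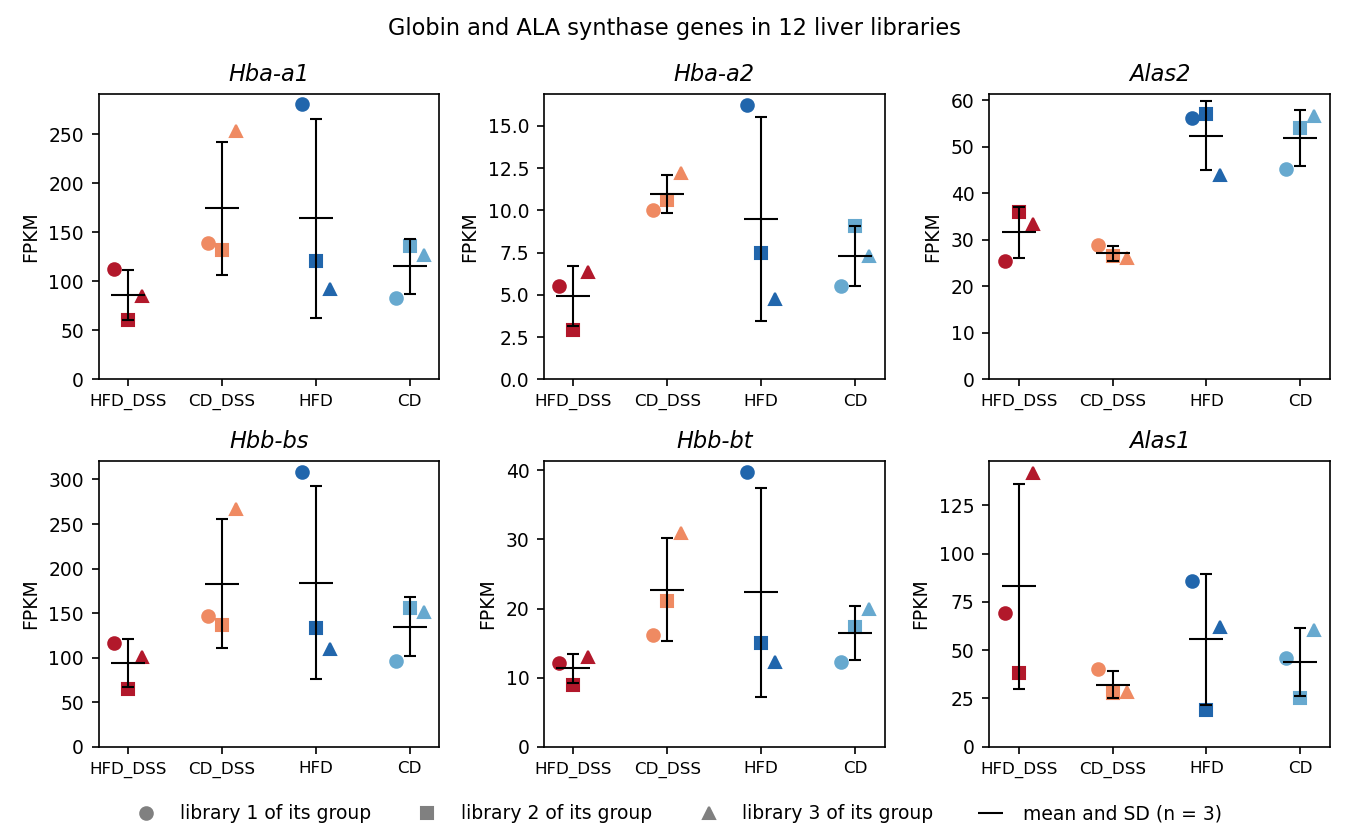
FPKM of the 6 genes in each of the 12 liver libraries, on axes that start at 0. Points are libraries, marked by their number within the group, and bars are the mean and SD of 3 libraries. Alas2 lies at 25.5 to 36.0 FPKM in the DSS libraries and at 44.0 to 57.1 FPKM in the untreated libraries, and HFD 1 and CD_DSS 3 are the highest libraries for all 4 globin genes.

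Alas2 had 25.5, 36.0 and 33.3 FPKM in HFD_DSS 1 to 3 and 29.0, 26.5 and 26.0 FPKM in CD_DSS 1 to 3. It had 56.2, 57.1 and 44.0 FPKM in HFD 1 to 3 and 45.1, 54.0 and 56.5 FPKM in CD 1 to 3. All 6 DSS libraries lay below all 6 untreated libraries, a pattern found in the lower direction for 3.85% of the genes tested. Averaged over both diets, the log2 fold change of Alas2 with DSS was -0.81 ± 0.10 (SE; 95% interval -1.04 to -0.59; limma adjusted p = 0.00112), which is 1.75-fold lower in the DSS libraries. Of the genes tested, 11.2% were called lower in this average. The remaining 5 genes were not called, with log2 fold changes of -0.22 to 0.12.

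Within each diet, the fall of Alas2 with DSS also passed the threshold. HFD_DSS livers averaged 31.6 ± 5.46 FPKM, against 52.4 ± 7.32 FPKM in HFD livers (SD, n = 3 each). The log2 fold change was -0.72 ± 0.14 (SE; limma adjusted p = 0.0262), in a comparison that called 4.83% of the genes tested and 3.1% of them lower. CD_DSS livers averaged 27.1 ± 1.61 FPKM, against 51.9 ± 5.99 FPKM in CD livers (SD, n = 3 each). There the log2 fold change was -0.90 ± 0.14 (SE; limma adjusted p = 0.0105), or 1.87-fold lower, in a comparison that called 4.8% of the genes tested and 2.79% lower. The diet comparisons gave no call for Alas2. It had a log2 difference of 0.20 between HFD_DSS and CD_DSS livers (95% interval -0.12 to 0.52) and of 0.01 between HFD and CD livers (95% interval -0.31 to 0.33). The fall on the high-fat diet and the fall on CD differed by 0.19 ± 0.21 on the log2 scale (SE; limma adjusted p = 0.9999). The call in the average held in all 21 alternatives. Within a single diet it did not survive the loss of some libraries: without HFD 2 the adjusted p in HFD_DSS against HFD was 0.123, and without CD_DSS 3 that in CD_DSS against CD was 0.0574.

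**Figure D2:**
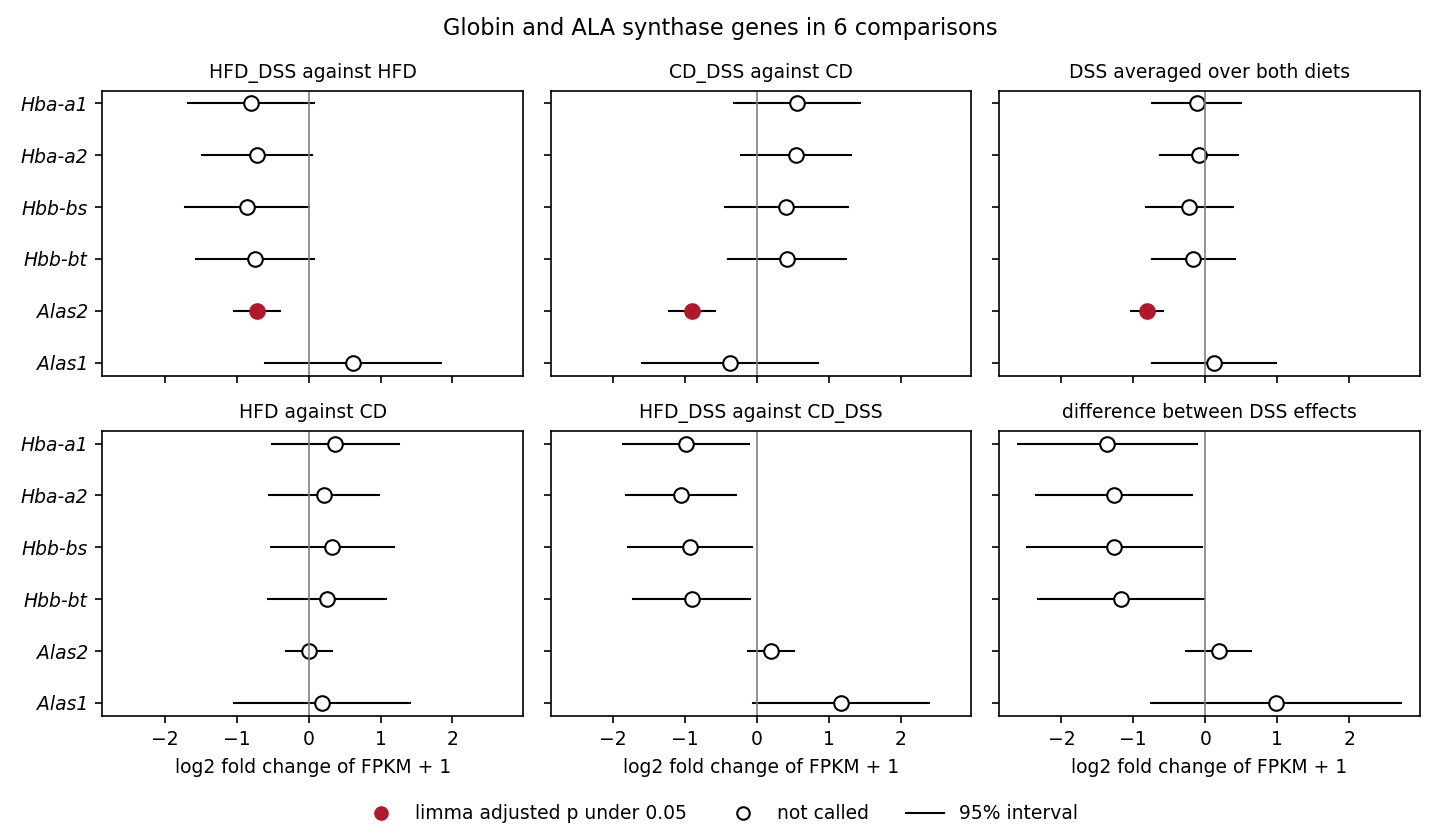
Log2 fold changes of FPKM + 1 with their 95% intervals for the 6 genes in 6 comparisons. Filled points have a limma adjusted p under 0.05 and open points do not. The filled points are Alas2 in the 3 DSS comparisons, and the globin genes lie below 0 in HFD_DSS against CD_DSS without a call.

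Alas1 had 69.1, 38.2 and 142 FPKM in HFD_DSS 1 to 3 and 40.1, 27.9 and 28.3 FPKM in CD_DSS 1 to 3. It had 85.9, 19.1 and 61.8 FPKM in HFD 1 to 3 and 45.9, 25.1 and 60.2 FPKM in CD 1 to 3. The highest library was HFD_DSS 3 and the lowest was HFD 2, and all groups overlapped, with HFD_DSS 1 and 3 above all CD_DSS libraries. The log2 difference of Alas1 between HFD_DSS and CD_DSS livers was 1.17 ± 0.56 (SE; 95% interval -0.06 to 2.39; limma adjusted p = 0.482), and this was 0.68 without HFD_DSS 3. Its change with DSS averaged over both diets was 0.12 (95% interval -0.74 to 0.99; limma adjusted p = 0.860). Averaged over both DSS states, the high-fat diet called none of the 6 genes, in a comparison that called 0.342% of the genes tested, and Alas1 had the highest value there, 0.67 (limma adjusted p = 0.514). In FPKM, the ratio of Alas1 to Alas2 ranged from 0.334 to 4.25 over the libraries, and its size depends on the exon lengths used.

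A list of 15 factors known to regulate Alas1 or to respond to heme was read beside it. With DSS averaged over both diets, where 8.72% of the genes tested rose, 2 of the 15 rose and none fell, with a median log2 fold change of 0.04 against -0.01 over all genes tested. Hnf4a, a hepatocyte transcription factor, rose by 0.53 (limma adjusted p = 0.00231). Sirt1, a protein deacetylase, rose by 0.35 (limma adjusted p = 0.0281), a call that held in 5 of 12 fits that each left out 1 library and was lost without HFD_DSS 2, CD_DSS 1 and HFD 1 (adjusted p = 0.0503) and with no filter.

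Of the 9 enzymes of heme synthesis, all were tested, 2 fell with DSS averaged over both diets, Alas2 itself among them, and 7 were not called, where 11.2% of all genes tested fell. Their median log2 fold change was -0.06, against -0.01 over all genes tested. Beside Alas2, the gene that fell was Uros, uroporphyrinogen III synthase, which closes the tetrapyrrole ring. Uros averaged 4.79 FPKM in HFD_DSS and 3.74 FPKM in CD_DSS livers, against 5.57 FPKM in HFD and 5.16 FPKM in CD livers. Its log2 fold change was -0.28 (limma adjusted p = 0.0298), and the adjusted p was 0.0745 without HFD_DSS 2, CD_DSS 1 and HFD 1, the 3 libraries that earlier results of these data placed between the groups. The call of Uros held in 6 of 12 fits that each left out 1 library. Alad, which joins ALA into porphobilinogen, had a log2 fold change of -0.22 (limma adjusted p = 0.0566).

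The last steps of the pathway were not called with DSS. Urod, the uroporphyrinogen decarboxylase, had a log2 fold change of -0.07 and Ppox, the protoporphyrinogen oxidase, one of 0.08. Fech, which inserts iron into protoporphyrin, averaged 54.7 FPKM in HFD_DSS, 61.5 in CD_DSS, 56.9 in HFD and 58.1 FPKM in CD livers, with a log2 fold change of 0.01. Cpox, the coproporphyrinogen oxidase, had 37.5, 32.0 and 39.9 FPKM in HFD_DSS 1 to 3 and 26.4, 21.7 and 25.6 FPKM in CD_DSS 1 to 3. Those groups did not overlap, and the log2 difference of 0.55 had a limma adjusted p of 0.0669, in a comparison that called 0.102% of the genes tested. Between these groups 7.53% of the genes tested were higher in HFD_DSS without overlap.

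Of 16 genes for cofactors and mitochondrial transport of heme synthesis, 15 were tested, 5 fell with DSS averaged over both diets, none rose and 10 were not called, where 11.2% of all genes tested fell. The median log2 fold change was -0.20, against -0.01 over all genes tested. Tmem14c, which carries protoporphyrinogen into the matrix, had 74.9, 78.5 and 71.9 FPKM in HFD_DSS 1 to 3 and 91.1, 75.7 and 78.1 FPKM in CD_DSS 1 to 3. It had 100.1, 107 and 89.2 FPKM in HFD 1 to 3 and 108, 112 and 116 FPKM in CD 1 to 3, and it fell by 0.42 on the log2 scale (limma adjusted p = 0.00372). Its highest DSS library, CD_DSS 1, lay above its lowest untreated library, HFD 3. Abcg2, a porphyrin exporter, fell by 0.67 (limma adjusted p = 0.00800). Abcb10, a transporter of the mitochondrial inner membrane, fell by 0.46 (limma adjusted p = 0.0199). Glrx5 and Nfs1, which serve iron-sulfur cluster assembly, fell by 0.28 and by 0.24 (limma adjusted p = 0.0206 and 0.0264). In fits that each left out 1 library, the calls of Tmem14c and Abcg2 held in 12 of 12, that of Abcb10 in 10, that of Glrx5 in 9 and that of Nfs1 in 7. Without HFD_DSS 2, CD_DSS 1 and HFD 1, 9 of the 15 fell and 1 rose. In that fit 17.4% of all genes tested fell and 13.8% rose. These libraries were left out with earlier results of these data known, so the counts are no separate support.

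**Figure D3:**
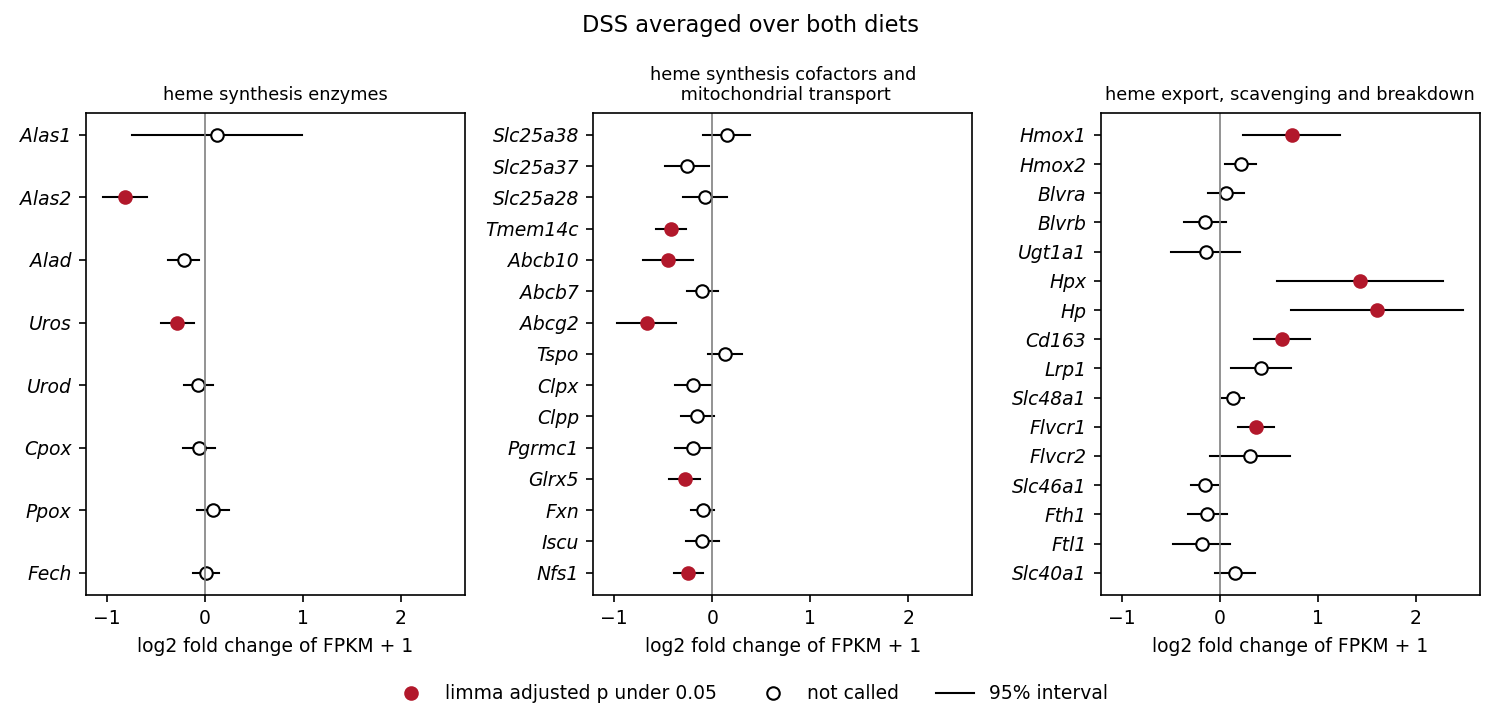
Log2 fold changes of FPKM + 1 with DSS averaged over both diets, with 95% intervals, for tested genes of 3 lists. Filled points have a limma adjusted p under 0.05. Alas2 and Uros are filled among the enzymes, 5 genes are filled below 0 among cofactors and transport, and 5 are filled above 0 among export, scavenging and breakdown.

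Hba-a1, the main α-globin row, had 112, 60.9 and 85.4 FPKM in HFD_DSS 1 to 3 and 139, 131 and 253 FPKM in CD_DSS 1 to 3. It had 281, 121 and 91.8 FPKM in HFD 1 to 3 and 83.0, 136 and 126 FPKM in CD 1 to 3. HFD 1 and CD_DSS 3 stood well above the other libraries, and the HFD and CD groups overlapped. Hbb-bs, the main β-globin row, had 116, 64.5 and 100.8 FPKM in HFD_DSS 1 to 3 and 146, 136 and 267 FPKM in CD_DSS 1 to 3. It had 308, 134 and 110.2 FPKM in HFD 1 to 3 and 96.3, 156 and 152 FPKM in CD 1 to 3. The same libraries were high and low as for Hba-a1. The lower rows of the pairs ran from 2.91 FPKM in HFD_DSS 2 to 16.2 FPKM in HFD 1 for Hba-a2, and from 9.00 FPKM in HFD_DSS 2 to 39.7 FPKM in HFD 1 for Hbb-bt.

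Summed over the 4 adult globin genes, the level averaged 196 ± 55.1 FPKM in HFD_DSS, 391 ± 149 in CD_DSS, 380.5 ± 231 in HFD and 273 ± 66.5 FPKM in CD livers (SD, n = 3 each). The sum was 0.0379 to 0.153% of all FPKM of a library. In each of the 4 genes, all 3 HFD_DSS libraries lay below all 3 CD_DSS libraries. The log2 differences between HFD_DSS and CD_DSS livers were -0.99 for Hba-a1, -1.06 for Hba-a2, -0.93 for Hbb-bs and -0.91 for Hbb-bt. Their standard errors were 0.35 to 0.40, and the limma adjusted p-values were 0.295 to 0.413. The unadjusted p was 0.0112 for Hba-a2 and 0.0310 for Hba-a1. Leaving out CD_DSS 3, the highest CD_DSS library, gave -0.69 for Hba-a1 and -0.63 for Hbb-bs.

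With DSS, the globin fold changes had opposite signs on the diets, and none passed the test. On the high-fat diet, Hba-a1 had a log2 fold change between HFD_DSS and HFD livers of -0.80 ± 0.40 (SE; 95% interval -1.68 to 0.08; limma adjusted p = 0.254). On CD, Hba-a1 had a log2 fold change of 0.56 ± 0.40 between CD_DSS and CD livers (SE; 95% interval -0.32 to 1.44; limma adjusted p = 0.437). For Hba-a1, Hba-a2 and Hbb-bs, all 3 HFD_DSS libraries lay below the HFD mean and all 3 CD_DSS libraries above the CD mean. For Hbb-bt it was 3 below and 2 of 3 above. How many of all genes tested did the same was not counted, and the globin genes varied together. The groups of Hba-a1 overlapped on both diets. HFD_DSS 1 (112 FPKM) lay above HFD 3 (91.8 FPKM), and CD_DSS 2 (131 FPKM) lay below CD 2 (136 FPKM). The difference between the DSS effects on the high-fat diet and on CD was -1.36 ± 0.57 for Hba-a1 (SE; unadjusted p = 0.0347; limma adjusted p = 0.9999) and -1.17 to -1.27 for the other 3 globin genes. Across all genes tested, 0.00925% were called for this difference. HFD 1 carried much of the difference on the high-fat diet: without it the log2 fold change of Hba-a1 was -0.33 and that of Hbb-bs was -0.41, and the difference between the DSS effects was -0.89 for Hba-a1.

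In the other diet comparison, HFD against CD, the log2 differences of the globin genes were 0.21 to 0.37 and none was called, with 0.00925% of the genes tested called. Without HFD 1 those of all 4 globin genes were below 0. Averaged over both diets, DSS gave log2 fold changes of -0.22 to -0.09, with limma adjusted p-values of 0.607 to 0.842. The order of group means was CD_DSS, HFD, CD and HFD_DSS for Hba-a1, and neighbours in that order overlapped.

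The ratio of α-globin to β-globin sums varied less than the levels. All CD_DSS ratios (0.890 to 0.918) lay above all untreated ratios (0.780 to 0.864), and those of HFD_DSS (0.806 to 0.918) overlapped the untreated ones. This difference was not tested. The ratio averaged 0.864 ± 0.056 in HFD_DSS, 0.903 ± 0.014 in CD_DSS, 0.835 ± 0.041 in HFD and 0.812 ± 0.031 in CD livers (SD, n = 3 each). Over the 12 libraries, Hba-a1 and Hbb-bs followed each other on the log2 scale (Pearson r = 0.99, Spearman rho = 0.97), and r was 0.98 without HFD 1 and CD_DSS 3, the libraries farthest from the median. The copies within a pair share much of their sequence, whereas Hba-a1 and Hbb-bs lie on different chromosomes. Hba-a1 and Alas2 did not follow each other (r = 0.03, rho = -0.01). Within DSS states, r was -0.79 in the 6 DSS libraries and 0.68 in the 6 untreated libraries. The 6 DSS libraries hold 2 groups that did not overlap in Hba-a1 and averaged 31.6 (HFD_DSS) and 27.1 FPKM (CD_DSS) of Alas2. That r therefore mixes the difference between the groups with the spread within them. Hba-a1 and Alas1 had r = -0.12 and rho = -0.18. Alas2 and Alas1 had r = -0.04 and rho = -0.13. All points of these correlations share library and depth, and they are given as descriptions.

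**Figure D4:**
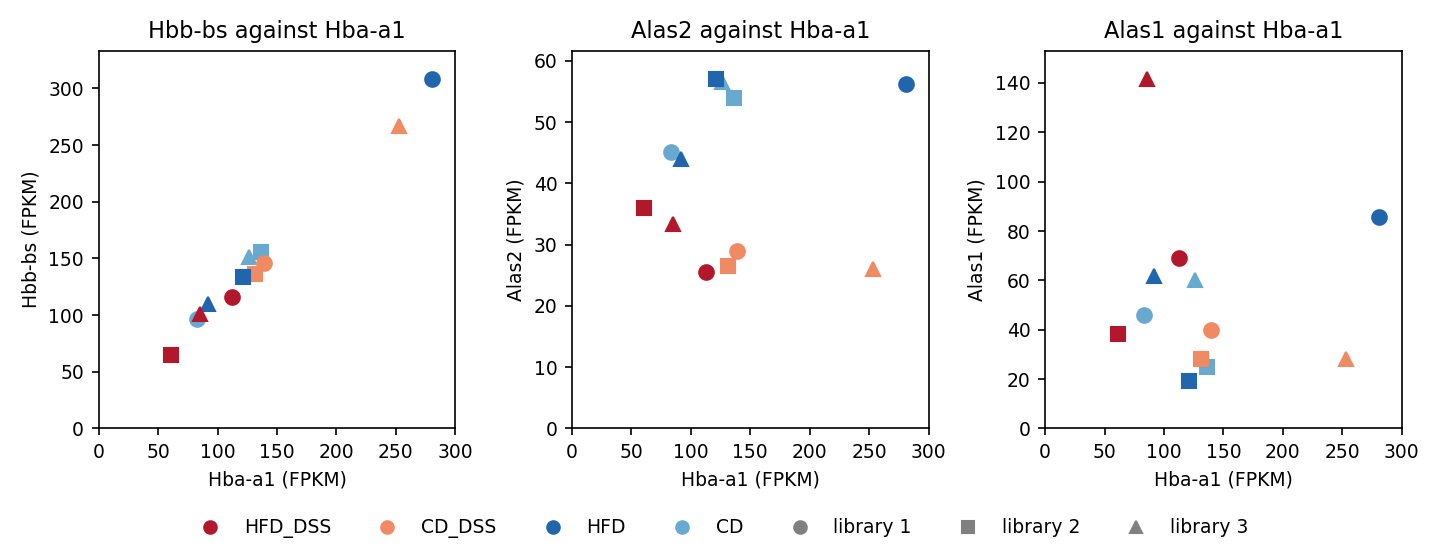
FPKM of Hbb-bs, Alas2 and Alas1 against FPKM of Hba-a1 in the 12 libraries, coloured by group and shaped by library number. Hbb-bs lies near a straight line with Hba-a1 (r = 0.99 on the log2 scale), Alas2 falls into a DSS and an untreated band at all Hba-a1 levels, and Alas1 shows no common course with Hba-a1.

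Red cell markers were read beside the globin genes and Alas2. Of 27 markers listed, 26 were in the table, and 14 were under 1 FPKM in every library. Slc4a1 (band 3), the anion exchanger of the red cell membrane, was near 0 and reached at most 0.423 FPKM. Gata1, the erythroid transcription factor, reached at most 0.0514 FPKM. Cldn13, Gata1, Gfi1b, Hemgn, Kel, Rhag and Trim58 were listed at 0 in all untreated libraries. They reached at most 0.0783 FPKM in the DSS libraries, and how many of all genes share this pattern was not counted. Other erythroid factors were above 0 in all untreated libraries, Klf1 at 0.675 to 1.28 FPKM and Nfe2 at 0.0690 to 0.682 FPKM. The summed level of the list was 79.2 to 92.4 FPKM in HFD_DSS, 91.6 to 98.0 in CD_DSS, 87.3 to 113 in HFD and 84.6 to 90.5 FPKM in CD livers. The largest single share was that of Ube2l6, a ubiquitin-conjugating enzyme that other cells also express, at 26.3 to 55.8 FPKM.

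With DSS averaged over both diets, 2 of the 11 tested red cell markers fell, beside 11.2% of all genes tested. The other 9 were not called, namely Epb41, Bpgm, Tmcc2, Isg20, Ube2l6, Mkrn1, Tent5c, Bnip3l and Car2. The median log2 fold change of the 11 was 0.01. Car1, a carbonic anhydrase, had 0.739, 1.59 and 0.905 FPKM in HFD_DSS 1 to 3 and 2.69, 2.05 and 1.47 FPKM in CD_DSS 1 to 3. It had 4.12, 5.72 and 3.93 FPKM in HFD 1 to 3 and 6.60, 4.64 and 5.36 FPKM in CD 1 to 3. Its DSS libraries all lay below its untreated libraries, as in 3.85% of the genes tested, and it fell by 1.27 on the log2 scale (limma adjusted p = 6.22e-04). Gypc, glycophorin C, fell by 0.46 (limma adjusted p = 0.00835) and averaged 1.54 FPKM in DSS and 2.54 FPKM in untreated libraries. Of 13 erythroid progenitor factors, 7 were under 1 FPKM in every library. Of the 6 tested, 1 rose, where 8.72% of all genes tested rose. It was Ldb1, a transcription cofactor, which rose by 0.23 (limma adjusted p = 0.0224). Neither Tfrc, the transferrin receptor (log2 fold change 0.11), nor Klf1, an erythroid transcription factor (-0.07), was called. Kit, Lmo2 and Zfpm1 were not called either. The part of red cells or their precursors in the globin and Alas2 levels was not tested beyond these values.

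**Figure D5:**
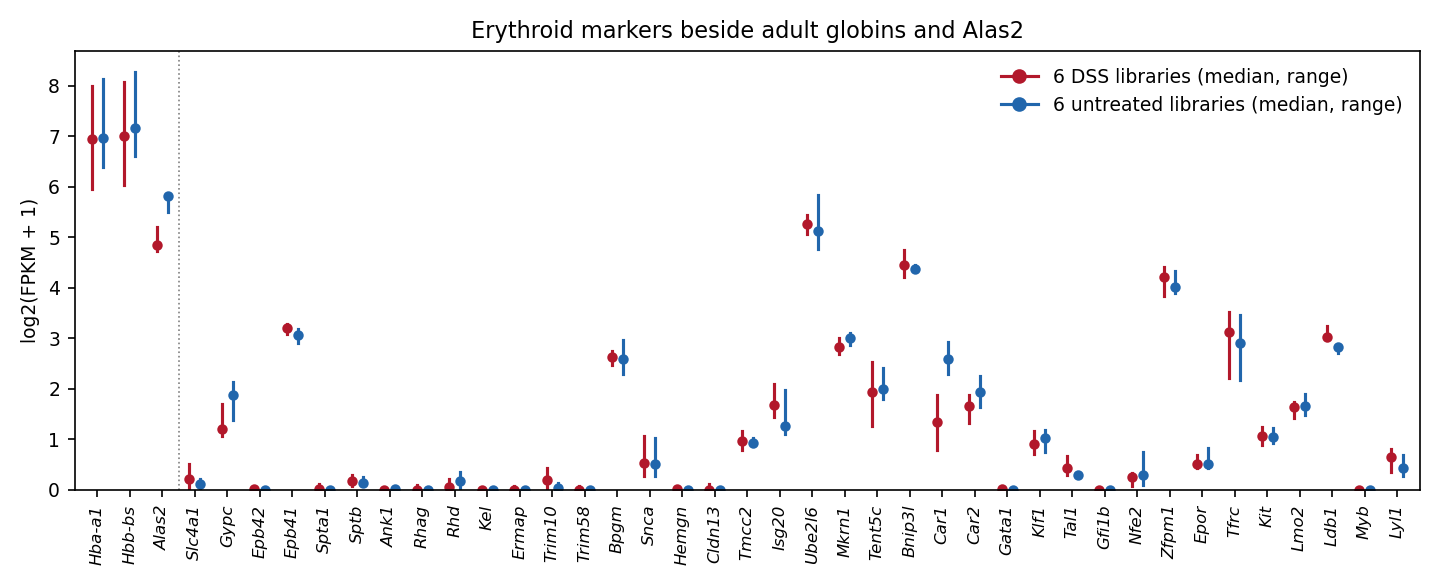
Log2(FPKM + 1) of Hba-a1, Hbb-bs and Alas2, left of the dotted line, and of red cell markers and erythroid progenitor factors, right of it. Points are medians and lines ranges over 6 DSS libraries (red) and 6 untreated libraries (blue). Most markers, among them Slc4a1 and Gata1, lie near 0, and Car1 is lower in the DSS libraries.

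Other globin genes added little. Of 11 listed, 6 were listed at 0 in every library and 10 were under 1 FPKM in every library. The exception was Cygb, cytoglobin, a globin of stellate cells in the liver. Cygb averaged 4.48 FPKM in DSS and 2.87 FPKM in untreated libraries, and it rose by 0.52 on the log2 scale with DSS (limma adjusted p = 0.0159).

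Several genes that remove heme and hemoglobin rose with DSS. Of 17 genes for heme export, scavenging and breakdown, 16 were tested, 5 rose with DSS averaged over both diets, none fell and 11 were not called, where 8.72% of all genes tested rose. The median log2 fold change was 0.18, against -0.01 over all genes tested. Haptoglobin, Hp, which binds free hemoglobin in plasma, had 11252, 4020 and 11059 FPKM in HFD_DSS 1 to 3 and 2141, 7112 and 7301 FPKM in CD_DSS 1 to 3. It had 4734, 1571 and 1589 FPKM in HFD 1 to 3 and 1636, 1940.5 and 1890.1 FPKM in CD 1 to 3. CD_DSS 1 lay near the untreated libraries and HFD 1 near HFD_DSS 2, so the groups overlapped. Hp rose by 1.60 on the log2 scale (limma adjusted p = 0.0182). Hpx, hemopexin, which binds free heme, rose by 1.43 (limma adjusted p = 0.0254).

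Hp and Hpx are also acute-phase genes of the hepatocyte. Cd163, the hemoglobin receptor of macrophages, rose by 0.64 (limma adjusted p = 0.00797) and averaged 8.44 FPKM in DSS and 5.00 FPKM in untreated libraries. Flvcr1, a heme exporter, rose by 0.37 (limma adjusted p = 0.0120). Hmox1, heme oxygenase 1, which opens the heme ring, averaged 22.9 FPKM in DSS and 13.4 FPKM in untreated libraries and rose by 0.73 (limma adjusted p = 0.0406). The Hmox1 call held in 3 of 12 fits that each left out 1 library and that of Hpx in 5 of 12, while those of Hp, Cd163 and Flvcr1 held in 12 of 12. With no filter on low values the adjusted p of Hp was 0.0693. No gene of this list was called within a single diet.

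Macrophage markers rose beside them. Of 12 macrophage and Kupffer cell markers, Cd163 among them, 7 rose with DSS averaged over both diets, where 8.72% of all genes tested rose, with a median log2 fold change of 0.56. The calls of Marco, Cd163 and Timd4 held in 12 of 12 fits that each left out 1 library. Those of Cd5l, C1qb, C1qc and Adgre1 held in 3 or 4 of 12 and were lost with no filter on low values. Marco, a scavenger receptor, rose by 1.52 (limma adjusted p = 0.00787). The summed neutrophil markers had 5.99 to 60.1 FPKM in HFD_DSS, 4.07 to 25.1 in CD_DSS, 2.01 to 25.2 in HFD and 1.91 to 4.03 FPKM in CD livers, and none of the 4 tested was called. The summed hepatocyte markers ranged from 35133 to 60275 FPKM. The part of these cell types in the changes above was not tested.

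The genes whose course over the 12 libraries was most like that of each of the 3 main rows were found by the Pearson correlation of log2(FPKM + 1) among all genes tested. For Alas2 the 8 closest were Mpst, Akr1e1, Cyp4a12a, Pafah2, Tmx2, Ces3a, Mcrip2 and Bola3, with r = 0.96 to 0.98. After removing the group means, r was 0.85 for Mpst, a sulfurtransferase, and 0.95 for Ces3a, a carboxylesterase of hepatocytes. For Hba-a1, apart from the other globin genes, the 8 closest were Tm2d3, Tmem234, Pfdn5, Samd1, Ccnd3, Clta, Pigu and Rpl23a, with r = 0.82 to 0.87. These are all lower than the 0.99 between Hba-a1 and Hbb-bs. For Alas1 they were Ifrd1, Jpt1, Rrp9, Lsm12, Pde6d, Gm15417, Slc52a2 and Yod1, with r = 0.81 to 0.88. These correlations were selected as the highest among 10806 genes and are given as a description.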

How the data were processed

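Liver RNA of 12 samples was measured, in groups and replicate numbers taken from the sample labels. Per the labels' protocols, total RNA came from a Qiagen RNeasy kit and libraries from a SMARTer mRNA-seq kit. The authors deposited gene FPKM values, 1 column per library, on genome build mm10 per the submitters' processing notes. The aligner and counter, and how strand and multiply matching fragments were treated, were not given in the sources used here. Left out were 4 empty columns without a name. Symbols, lengths and positions came from the mm10 GENCODE annotation, which matched 54409 of 54532 gene IDs (99.8%). Multiplied by exon length, 97.0 to 97.3% of values under 500 fragments lay within 0.02 of a whole number, which gave the fragment counts behind the values and a depth of 23.4 to 29.4 M fragments per library.

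The 10806 genes that reached 1 FPKM in 3 or more libraries were tested as log2(FPKM + 1), a scale that understates changes of low genes and to which all fold changes refer. One model of 4 group means over all 12 libraries was fitted in R 4.3.3 by limma 3.58.1 with a trended empirical Bayes variance and two-sided tests, with Benjamini-Hochberg adjustment over all genes tested and a threshold of 0.05. It was tested on simulated data first. The comparisons were HFD_DSS against HFD, CD_DSS against CD, HFD against CD, HFD_DSS against CD_DSS, DSS and HFD averages and the difference between the DSS effects. They share libraries. The genes and lists, and the alternative without HFD_DSS 2, CD_DSS 1 and HFD 1, were chosen with earlier results of these data known. Named are the 6 genes, tested or called genes of the heme synthesis, globin and erythroid lists, called genes of the other lists and the 8 genes most like Hba-a1, Alas2 and Alas1. Markers at or near 0, the members of a list with the largest share, and comparisons of neighbouring genes were named after their values were seen. Alternatives were another pseudocount (0.1), no filter, a mean of at least 5 FPKM, TPM scaling, median-of-ratios scaling, voom on recovered fragments, library weights, only the groups compared, a replicate block and leaving out libraries. A few list genes are counted in their lists but not reported here by name or in the figures. Upstream sequences came from RefSeq on GRCm38.p6.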

Additional observations from a re-analysis of the deposited data

How the results depend on the processing

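Of 762 alternative values for the 6 genes, 719 kept direction and side of the threshold, 7 kept the direction but lost the call, and 36 changed sign, none of them called. The count of called genes was 1 (Alas2) in the 3 DSS comparisons and 0 in the others. In HFD_DSS against HFD it was 0 with no filter (adjusted p = 0.0651) and with only the compared groups (0.0763), and 0 to 1 over fits leaving out 1 library each (lost without HFD_DSS 1, HFD_DSS 3 or HFD 2). In CD_DSS against CD it was also 0 to 1 (lost without CD_DSS 3 or CD 2). In the DSS average the adjusted p of Alas2 stayed between 1.01e-04 and 0.00542. The cause of these losses was not tested; the fits leaving out a library hold fewer samples. With library weights, HFD against CD gave -0.034 for Hba-a1, -0.17 for Hba-a2, -0.057 for Hbb-bs, -0.083 for Hbb-bt and -0.010 for Alas2, and the DSS average gave 0.038 for Hba-a2 and 0.041 for Hbb-bt. With TPM, HFD against CD gave -0.025 for Alas2. Without HFD_DSS 2, CD_DSS 1 and HFD 1, HFD against CD gave -0.095 for Hba-a1, -0.22 for Hba-a2, -0.11 for Hbb-bs, -0.24 for Hbb-bt, -0.043 for Alas2 and -0.25 for Alas1, and the DSS average gave 0.29 for Hba-a1, 0.30 for Hba-a2, 0.19 for Hbb-bs and 0.26 for Hbb-bt. There HFD_DSS against HFD gave -0.10 for Hba-a1 and -0.16 for Hbb-bs. With DSS averaged over both diets in that fit, 7 of 16 genes of heme removal rose and 2 fell. The red cell markers had 2 that fell and 1 that rose, where 13.8% of all genes tested rose and 17.4% fell. The libraries were left out with earlier results of these data known, so these counts are no separate support. Leaving out 1 library each, HFD against CD ranged from -0.095 to 0.71 for Hba-a1, -0.22 to 0.57 for Hba-a2, -0.11 to 0.62 for Hbb-bs, -0.24 to 0.57 for Hbb-bt, -0.084 to 0.13 for Alas2 and -0.25 to 0.81 for Alas1. The DSS average ranged from -0.29 to 0.11 for Hba-a1, -0.27 to 0.13 for Hba-a2, -0.32 to 0.083 for Hbb-bt and -0.19 to 0.35 for Alas1, and HFD_DSS against HFD from -0.011 to 1.07 for Alas1. With the replicate number as a block, the adjusted p of Alas2 was 0.0467 in HFD_DSS against HFD, 0.0271 in CD_DSS against CD and 0.00390 in the DSS average, and no call of the 6 genes changed. Of the list genes named, Uros, Hmox1, Cd5l, C1qb, C1qc, Adgre1 and Apoa2 were not called in the DSS average with the block. Libraries with the same number deviated from their group means with correlations of -0.356 to 0.258. Libraries with different numbers were not compared in this way, so these values cannot decide whether the numbers pair samples. Depth limits Hba-a2 most, with 54 to 278 fragments per library, and the markers under 1 FPKM, and 3 libraries a group limit the globin and Alas1 comparisons.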

Other observations

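Most tested enzymes that hold heme, or hand electrons to those that do, fell with DSS. Of 17 listed, 16 were tested, and with DSS averaged over both diets 11 fell, 1 rose and 4 were not called, where 11.2% of all genes tested fell and 8.72% rose, with a median log2 fold change of -0.49 against -0.01 over all genes tested. Cyp2a5, a P450 that oxidises coumarin, had 1.25, 3.38 and 1.78 FPKM in HFD_DSS 1 to 3 and 55.9, 13.1 and 15.4 FPKM in CD_DSS 1 to 3. It had 40.1, 53.0 and 38.2 FPKM in HFD 1 to 3 and 98.2, 77.8 and 93.3 FPKM in CD 1 to 3, and it fell by 2.91 on the log2 scale (limma adjusted p = 6.08e-04). Cyp1a2 fell by 1.75. Cyp7a1, the first enzyme of bile acid synthesis, fell by 1.93 in the average, and its adjusted p was 0.0596 with no filter. By diet, Cyp7a1 had a log2 fold change of -0.022 in HFD_DSS against HFD livers (limma adjusted p = 0.990) and of -3.83 in CD_DSS against CD livers (limma adjusted p = 0.0159), and the difference between these had a limma adjusted p of 0.699. The others that fell were Cyp3a11 by 0.95, Cyp8b1 by 0.87, Tdo2 by 0.76, Cyp2c29 by 0.73, Cat by 0.57, Cyb5r3 by 0.42, Cycs by 0.41 and Sdhc by 0.24. Por, the reductase that serves the P450 enzymes, rose by 0.62 (limma adjusted p = 0.0109). Within a single diet, Cyp2a5 and Tdo2 were called lower on both. Cyp1a2, Cyp2c29, Cyp3a11, Cat and Cyb5r3 were called lower only on the high-fat diet, where Por rose by 1.03. Cyp8b1 and Cyp7a1 were called lower only on CD, and Por was not called there. No gene of this list was called for the difference between the DSS effects.

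The remaining cell lists were read with DSS averaged over both diets, where 8.72% of all genes tested rose and 11.2% fell. Of 11 platelet markers, 9 were under 1 FPKM in every library, and 1 of 2 tested rose (Clec1b by 0.36). Of 12 lymphocyte markers, 9 were under 1 FPKM in every library, and the 1 tested fell (Cd4 by 0.57). So few tested genes do not describe a cell type. None of 4 tested proliferation markers was called. Of 10 tested endothelial markers, Clec4g rose by 0.36, a call that held in 12 of 12 fits that each left out 1 library. Lyve1 rose by 0.39 and Tek fell by 0.42, and each of these calls held in 6 of 12 and was lost with no filter. Of 10 hepatocyte markers, the acute-phase gene Fgb rose by 1.23, Hnf4a rose and Apoa2 fell by 0.33, and the call of Apoa2 held in 5 of 12 such fits.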
